A study of Mus musculus and Homo sapiens with 12 samples.

Results

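The 10 genes described here encode the transcription factors that drive epithelial-mesenchymal transition (EMT) and the epithelial proteins that oppose them: SNAI1, SNAI2, TWIST1, TWIST2, ZEB1 and ZEB2 on one side, and OVOL1, OVOL2, GRHL2 and ESRP1 on the other. They were taken by gene symbol, compared in capitals, from the 2 comparison tables of the study. All 10 had a row among the 23201 genes of the mouse KPC table. In the human PANC1 table of 18190 genes, 7 had a row, and SNAI2, TWIST1 and GRHL2 were not analysed here. An adjusted p was listed for 8 of the 10 in KPC and for 6 of the 7 in PANC1, and these are called tested below.

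RNA was sequenced from 12 samples in 4 groups of 3 biological replicates: KPC, KPC LM2, PANC1 and PANC1 LM3. The sample titles call all of them cells. KPC denotes mouse pancreatic ductal carcinoma cells, and KPC LM2 is its liver-metastatic derivative of generation 2. PANC1 is a widely used human line of the same cancer type, and its liver-metastatic derivative PANC1 LM3 is of generation 3. All 4 groups carry the genotype entry WT, and in all of them 500000 cells were placed in the spleen on day 1 and liver tumours were collected on day 21; the strain, sex and age of the hosts are not given in the sources used here. Each selected line is 1 line, so a difference describes that line against its parent. The comparison in each model asked how the selected line differed from its parent. Only 1 table per model was used, without a value for any single library, so depth per sample is unknown, and each value below is the authors' own estimate over 6 libraries, without a check on single replicates. Whether a positive value means higher in the parental or in the selected line is not stated by the headers. Signs are therefore printed as they stand in the tables, with no direction drawn from them. The mean normalised count over the 6 libraries of a model, the measure of expression level listed there, is called the mean count.

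During EMT, cells bound by E-cadherin junctions lose them and take on a motile, spindle-shaped form. SNAI1 (Snail) and SNAI2 (Slug) are zinc finger repressors, ZEB1 and ZEB2 are zinc finger and homeodomain repressors, and all of them bind E-box elements in epithelial promoters such as that of E-cadherin; TWIST1 and TWIST2 are basic helix-loop-helix factors that also bind E-boxes. On the epithelial side, GRHL2 (a grainyhead factor) and OVOL1 and OVOL2 (zinc finger repressors) act in mutual antagonism with the ZEB factors, and ESRP1 is an RNA-binding protein that sets the epithelial pattern of alternative splicing. In pancreatic carcinoma these factors are known for their link to poorly differentiated tumours and to invasion.

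Since these factors bind E-boxes, the mouse promoters of 3 of their genes are shown, as the 250 bases before the RefSeq start site (table build GRCm38.p6, another build than the authors' mm39). Promoter entries were matched for 5 of the 10 genes, Snai1, Twist1, Twist2, Zeb2 and Ovol2. Twist1 is shown as the called factor of the KPC model, Twist2 as its paralogue that was not called, and Snai1 as the window with a match. Capitals mark the E-box CANNTG, which reads the same on both strands. The windows are chr12:33957421-33957670 for Twist1, chr1:91801211-91801460 for Twist2 and chr2:167537945-167538194 for Snai1, all on the + strand.
Twist1: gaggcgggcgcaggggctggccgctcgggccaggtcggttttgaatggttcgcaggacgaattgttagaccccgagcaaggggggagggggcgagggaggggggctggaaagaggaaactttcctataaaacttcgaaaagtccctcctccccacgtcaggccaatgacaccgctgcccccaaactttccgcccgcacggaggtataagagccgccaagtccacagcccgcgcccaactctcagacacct
Twist2: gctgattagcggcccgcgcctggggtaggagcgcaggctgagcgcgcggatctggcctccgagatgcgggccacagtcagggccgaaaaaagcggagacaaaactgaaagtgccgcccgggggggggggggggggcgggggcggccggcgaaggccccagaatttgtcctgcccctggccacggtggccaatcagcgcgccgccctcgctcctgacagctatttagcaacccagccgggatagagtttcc
Snai1: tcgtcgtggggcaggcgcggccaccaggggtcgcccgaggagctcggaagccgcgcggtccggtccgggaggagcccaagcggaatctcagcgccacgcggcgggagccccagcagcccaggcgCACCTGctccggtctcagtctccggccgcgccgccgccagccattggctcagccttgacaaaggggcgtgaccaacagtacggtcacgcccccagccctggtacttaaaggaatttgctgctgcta
The Snai1 window held 1 E-box, at base 125 of the window, and it was of the CAGGTG type (CACCTG on the other strand), the core that the Snail and ZEB zinc fingers bind. No CANNTG was found in the windows of Twist1, Twist2 or Ovol2, or in the 4 windows of Zeb2. Of all 32851 promoter windows of this length, 66.2% held CANNTG and 17.2% held CAGGTG, which is a subset of CANNTG. The grainyhead core AACCGGTT was in 0.116% of all windows and in none of those of the 5 genes. No binding was measured in the data used here, so these are descriptions of sequence only.

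In the KPC model, the EMT factor gene Twist1 and the epithelial guardian gene Grhl2 were called, with opposite signs. In the authors' deposited table Twist1 stood at a log2 fold change of 2.23 ± 0.39 (standard error, SE) and Grhl2 at -1.58 ± 0.35. A gene is called here when the authors' Wald test, which divides the fold change by its SE, gave an adjusted p under 0.05 over all genes tested. By that rule 10.4% of all 20050 tested KPC genes were called, 5.77% positive and 4.6% negative, and 2 of the 8 tested members were called, 1 in each direction. Calls varied with level, from 5.8% of KPC genes with a mean normalised count under 16 to 13.9% between 16 and 64 and 12.7% at 64 or more. With 8 genes, the members' count says little by itself. The median log2 fold change of the tested members in the authors' deposited table was -0.31, beside -0.08 for all tested genes.

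In the PANC1 model, 3 EMT repressor genes were called with positive values and the splicing guardian gene ESRP1 with a negative value. In the authors' deposited table ZEB2 stood at 3.84 ± 0.51, SNAI1 at 0.61 ± 0.20, ZEB1 at 0.34 ± 0.07 and ESRP1 at -1.72 ± 0.43 on the log2 scale. The background was much higher in this model, since 52.5% of all 17838 tested genes were called, 26% positive and 26.5% negative. The 4 calls among the 6 tested members are close to that background. ZEB2 and ESRP1 lay between 16 and 64, where 45.2% of PANC1 genes were called, and SNAI1 and ZEB1 above 64, where 69.3% were. The median log2 fold change of the tested members in the authors' deposited table was 0.48, beside 0.00 for all tested genes.

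**Figure D1:**
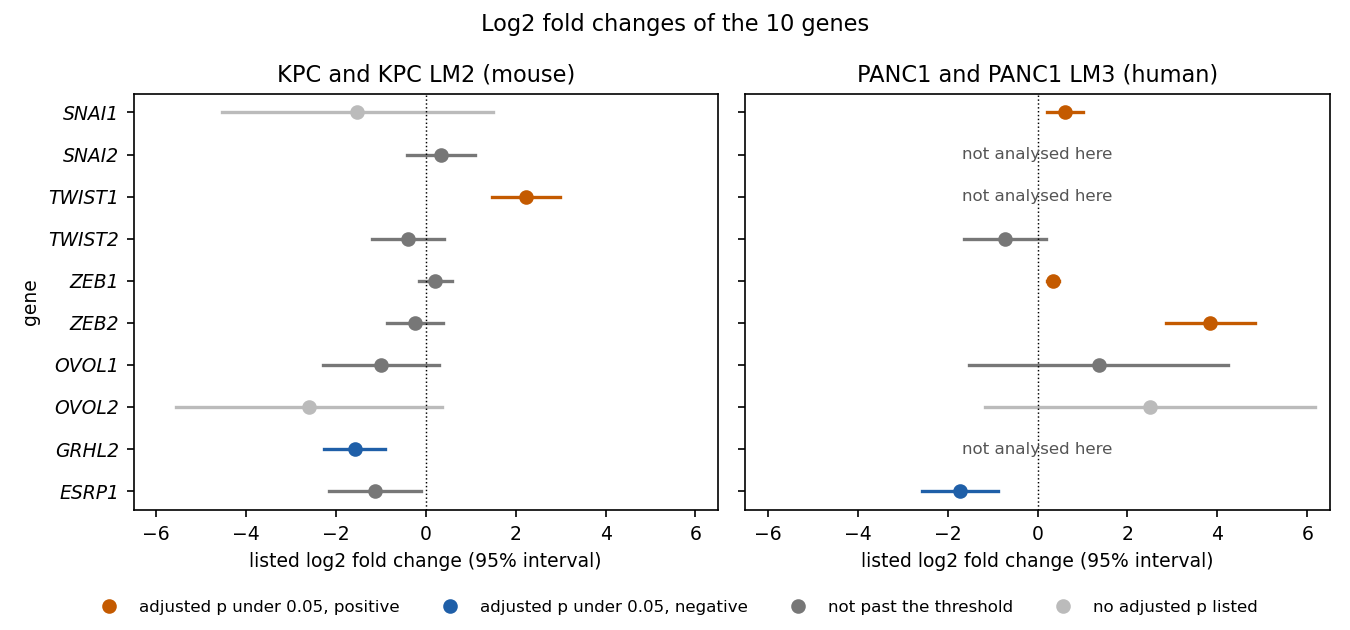
Listed log2 fold change (x axis) of each of the 10 genes (y axis) in the KPC and PANC1 tables; points are the authors' estimates and lines their 95% intervals from the listed SE. Twist1 and ZEB2 stand apart on the positive side and Grhl2 and ESRP1 on the negative side, while the intervals of Snai1, Ovol1 and Ovol2 are wide.

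The SNAIL and SLUG repressor genes had small fold changes where they were measured well. In the authors' deposited table for PANC1, SNAI1 had a mean count of 81.1 and a fold change of 1.53 (95% interval 1.16 to 2.01, adjusted p by the Wald test 0.0063). Were both groups weighted alike, that would correspond to about 98.0 and 64.2 normalised counts. Mouse Snai1 was near the floor of detection, with a mean count of 2.65 and no adjusted p in the authors' deposited table. Its log2 fold change was -1.53 ± 1.54 in the authors' deposited table, and KPC genes of the same level had a median of -1.53. Snai2 was at 0.33 ± 0.39 with a mean count of 59.5 in the authors' deposited table for KPC (adjusted p by the Wald test 0.58), an interval from -0.43 to 1.10. That interval reaches 2.14-fold on the positive side.

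Of the TWIST genes, Twist1 was called in KPC and Twist2 was not. Twist1, which is needed for mesoderm and neural crest development, had a mean count of 87.3 and a fold of 4.69 in the authors' deposited table (95% interval 2.76 to 7.98, adjusted p by the Wald test 1.56e-06). That fold corresponds to about 144 normalised counts in the higher group and 30.7 in the lower, if both groups are weighted alike. By the size of the Wald statistic it ranked 149 of 23201 in the authors' deposited table. Its close relative Twist2 was at -0.39 ± 0.40 with a mean count of 44.3 in the authors' deposited table (adjusted p by the Wald test 0.53), and the interval from -1.18 to 0.40 covers 0. In PANC1 the authors' deposited table listed TWIST2 at -0.73 ± 0.46 with a mean count of 16.7 (adjusted p by the Wald test 0.18). TWIST2 thus had a negative value in both tables and was called in neither. The difference between Twist1 and Twist2 within KPC was not tested.

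Of the ZEB repressors, ZEB1 was well expressed in both models with a small fold change, and ZEB2 was the member with the largest fold change of all, in PANC1. ZEB2 had a mean count of 27.3 in the authors' deposited table for PANC1 and a 14.4-fold difference (95% interval 7.20 to 28.6, adjusted p by the Wald test 2.49e-13). Weighted alike, the groups would stand at about 51.0 and 3.55 normalised counts, so in the lower group ZEB2 was close to the floor. The table does not say if some libraries had no reads of the gene, and this fold is a model estimate and not a bound. In KPC the gene was at -0.23 ± 0.32 with a mean count of 402 in the authors' deposited table (adjusted p by the Wald test 0.64). ZEB1 was listed at 1.27-fold (95% interval 1.15 to 1.40, adjusted p by the Wald test 8.20e-06) with a mean count of 1091 in the authors' deposited table for PANC1. Its SE of 0.07 was the smallest of the tested members, so even this small difference passed. In KPC, Zeb1 was at 0.22 ± 0.18 with a mean count of 875 in the authors' deposited table (adjusted p by the Wald test 0.43). The median KPC gene at that level was also at 0.22, so Zeb1 stood with its neighbours in expression. Whether strand was used in counting is not given in the sources used here; without it, reads from ZEB1 and its antisense gene ZEB1-AS1 cannot be told apart where they overlap. ZEB1-AS1 was at 0.46 ± 0.26 with a mean count of 45.1 in the authors' deposited table for PANC1.

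Among the epithelial guardians, GRHL2 in KPC and ESRP1 in PANC1 were called, both with negative values. Grhl2 had a mean count of 56.9 in the authors' deposited table for KPC and a fold of 2.99 (95% interval 1.86 to 4.81, adjusted p by the Wald test 0.000336). The groups would stand at about 85.4 and 28.5 normalised counts if weighted alike. Esrp1 was at -1.13 ± 0.52 with a mean count of 59.3 in the authors' deposited table for KPC, and its unadjusted p of 0.032 became 0.14 after adjustment. Human ESRP1 was called in PANC1, with a mean count of 20.6 and a fold of 3.29 in the authors' deposited table (95% interval 1.84 to 5.90, adjusted p by the Wald test 0.000182). For ESRP1, about 31.5 and 9.58 normalised counts would give that fold.

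The OVOL genes were too low to be read in either model. Ovol1 had a mean count of 13.3 and a log2 fold change of -1.002 ± 0.66 in the authors' deposited table for KPC (adjusted p by the Wald test 0.30), where the median gene of that level stood at -1.03. Ovol2 had a mean count of 2.89, a value of -2.59 ± 1.51 and no adjusted p in the authors' deposited table. In PANC1 the authors' deposited table listed OVOL1 at 1.36 ± 1.47 with a mean count of 1.56, and OVOL2 at 2.50 ± 1.87 with 1.03 and no adjusted p. All 4 intervals include 0 and reach past a 4-fold difference on one side, so a change of that size could not be told from none at these levels.

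**Figure D2:**
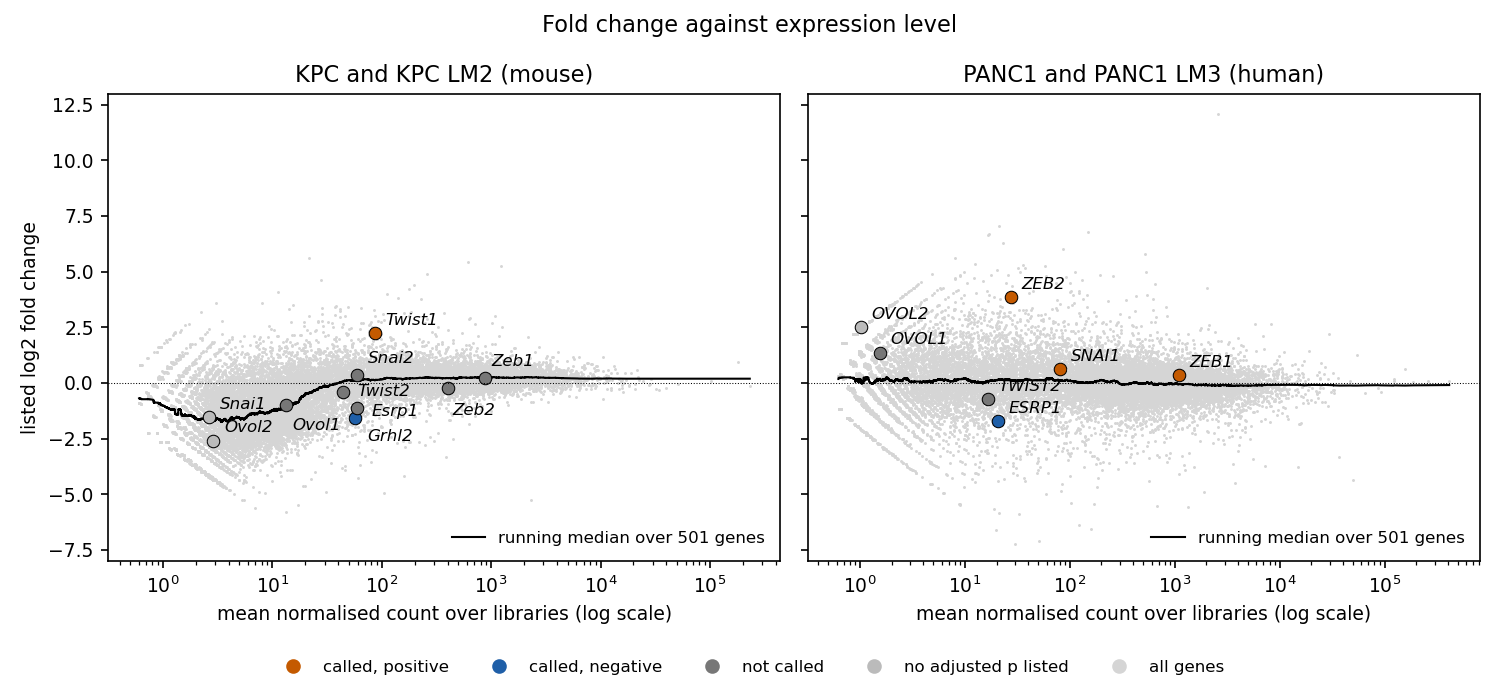
Listed log2 fold change (y axis) against mean normalised count over libraries (x axis, log scale) for all genes of each table in grey, with the members in colour and the running median over neighbouring genes as a line. In KPC the running median falls below 0 at low counts, where Snai1 and Ovol1 lie on it, while Twist1 and Grhl2 lie away from it at higher counts.

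The level of a gene mattered for the KPC values. In the authors' deposited table the 10407 KPC genes with a mean count under 16 had a median log2 fold change of -1.45, and 89.7% of them were negative. A running median of the fold change was therefore taken over genes ordered by mean count. At the levels of Twist1 and Grhl2 it was 0.13 and 0.10. After the running median was subtracted, Twist1 was at 2.10 (adjusted p by the same normal test 9.58e-06) and Grhl2 at -1.68 (0.000119), so both calls held. In PANC1 the corresponding median for genes under 16 was 0.10 in the authors' deposited table.

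Levels can be compared between genes per length, which was possible for the mouse genes with GENCODE M21 exons (GRCm38). Among EMT factors in the KPC model, Zeb1 had the most signal per length, at 85.2 normalised counts per kilobase of annotated exon. Twist1 followed at 53.6, Snai2 at 29.4 and Zeb2 at 20.2. Twist2 stood at 13.9, Esrp1 at 9.41 and Grhl2 at 6.61, and the remaining 3 genes, Ovol1, Snai1 and Ovol2, were between 3.80 and 1.37. Per kilobase of the longest coding transcript in place of all exons, Zeb2 stood at 44.1, above Snai2, and Ovol2 at 1.87, above Snai1 at 1.63. The other places in the order were unchanged between these 2 lengths. These are means over both groups, with no spread over samples, so neighbours in the order cannot be separated.

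**Figure D3:**
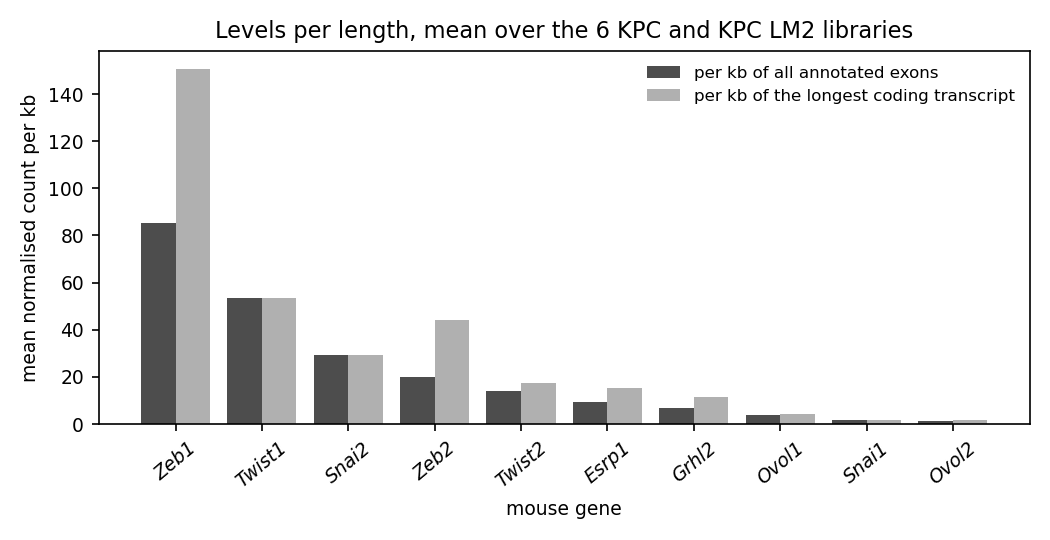
Mean normalised count per kilobase (y axis) of the 10 mouse genes (x axis), over the 6 KPC and KPC LM2 libraries, by all annotated exons (dark bars) and by the longest coding transcript (light bars). Zeb1 is highest by both lengths, at 85.2 and 151, and Snai1 and Ovol2 are lowest.

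Between the models, ZEB2 was the member whose listed values differed. The difference of the listed log2 fold changes, KPC minus PANC1, was tested over 12777 symbols with an adjusted p in both tables, of which 34.9% differed at an adjusted p under 0.05. For ZEB2 the difference was -4.08 ± 0.60 (adjusted p = 3.53e-10 by a normal test over all symbols with Benjamini-Hochberg adjustment). The other 4 members tested in both tables did not pass: ZEB1 at -0.13 (95% interval -0.51 to 0.26), ESRP1 at 0.59 (-0.73 to 1.92), TWIST2 at 0.34 (-0.86 to 1.55) and OVOL1 at -2.36 (-5.52 to 0.79). Only the ZEB1 interval is narrow. The test takes both tables to be coded the same way round; with the opposite sign for PANC1, ZEB2, ZEB1 and ESRP1 all differed, by 3.61, 0.56 and -2.85 (adjusted p by the same test 4.69e-08, 0.020 and 0.00027). The ZEB2 call held under either coding but was lost when the difference was read from Student's t with 4 degrees of freedom in place of the normal (adjusted p = 0.081), and that ESRP1 and ZEB1 had the same sign in both models depends on the coding.

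Of the epithelial transcription and splicing factors outside the 10 genes, 17 were tested in KPC, where 3 were called positive and 0 negative, beside 10.4% of all KPC genes. In PANC1 3 of 17 were called positive and 9 negative, beside 52.5% of all genes. Whether the list leans the same way in both models depends on the coding of the tables, since with the opposite sign for PANC1 its 9 calls would be positive, like the 3 of KPC, and its 3 negative. In the authors' deposited table for KPC the positive calls were the ETS factor genes Ehf (2.05 ± 0.31) and Elf3 (1.09 ± 0.27) and the Kruppel-like factor gene Klf4 (0.86 ± 0.24). After the running median was subtracted Klf4 was no longer called (adjusted p by the normal test 0.087), and Grhl1, at 1.28 ± 0.48 in the authors' deposited table (adjusted p by the Wald test 0.060), was (0.032). The median log2 fold change of the list in KPC was 0.61, beside -0.08 for all tested genes. In PANC1 the median was -0.70, beside 0.00 for all tested genes.

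In PANC1 the ETS factor gene ELF3 was listed at -3.67 ± 0.09 with a mean count of 1230 in the authors' deposited table, and its Wald p was listed as 0. The grainyhead factor gene GRHL3, a relative of GRHL2, was at -1.94 ± 0.14 in the authors' deposited table (adjusted p by the Wald test 7.64e-40). FOXA1, a pioneer factor of endoderm, stood at -2.85 ± 0.38 and the epidermal kinase gene RIPK4 at -1.32 ± 0.08 in the authors' deposited table. Against these, GATA6, a factor of the classical pancreatic carcinoma subtype, was at 2.11 ± 0.30, KLF5 at 1.49 ± 0.34 and GRHL1 at 0.45 ± 0.14 in the authors' deposited table. The splicing factor gene ESRP2, the paralogue of ESRP1, was at 0.02 ± 0.12 in PANC1 and 0.28 ± 0.30 in KPC in the authors' deposited tables, called in neither. OVOL3 was not called either, at -0.32 ± 0.72 in PANC1 and -2.71 ± 1.18 in KPC in the authors' deposited tables.

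Of 16 of these factors tested in both tables, 9 differed between the models by the test of the difference, where 34.9% of all 12777 symbols did. As listed, KPC had the higher value in 8 of the 9. With the opposite sign for PANC1, 10 differed, and KPC had the higher value in 4 of them and the lower in 6, so no direction is settled. ELF3 differed by 4.76 ± 0.28 (adjusted p by the normal test of the difference 2.03e-59) and GRHL3 by 2.05 ± 0.60 (adjusted p by the same test 0.0031), KPC minus PANC1 as listed. With the opposite sign for PANC1 both still differed, with the direction turned, at -2.58 for ELF3 (adjusted p by the same test 1.38e-17) and -1.82 for GRHL3 (0.011).

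**Figure D4:**
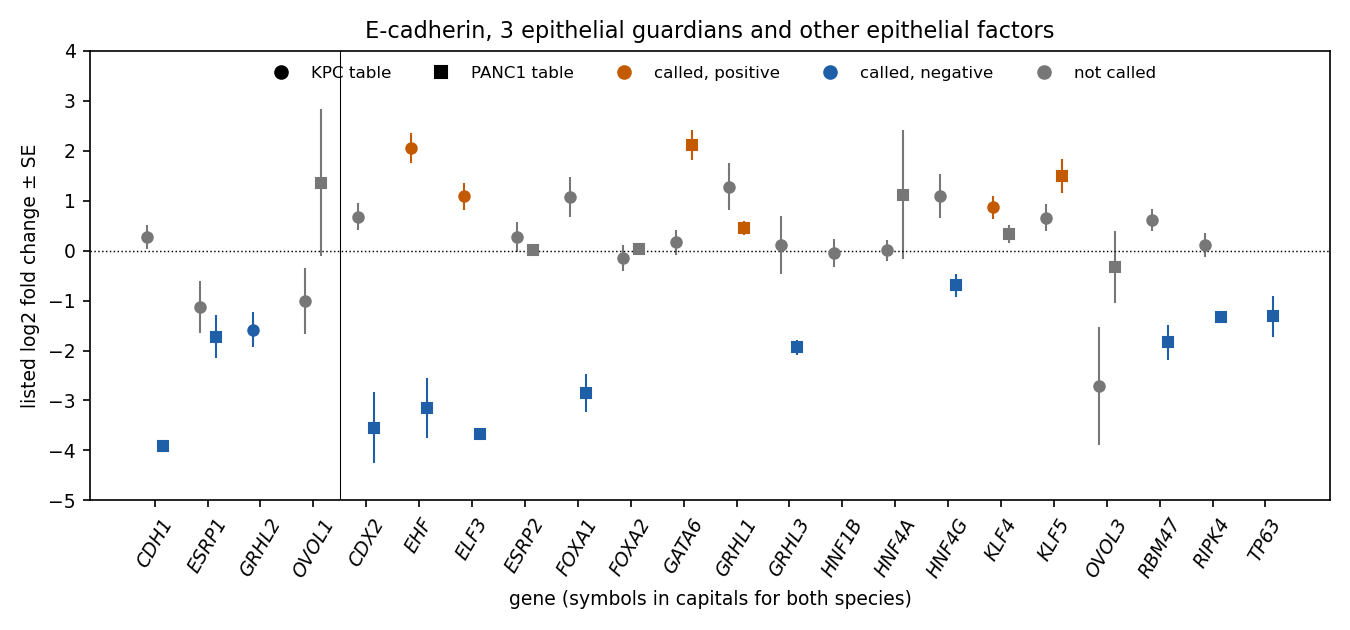
Listed log2 fold change ± SE (y axis) of E-cadherin, ESRP1, GRHL2, OVOL1 and the other epithelial factors (x axis) in the KPC table (circles) and the PANC1 table (squares), coloured by call. ELF3 and CDH1 are strongly negative in PANC1, at -3.67 and -3.92, and not in KPC, at 1.09 and 0.27.

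E-cadherin, the best known target of the repressors, was also tested for a difference between the models. CDH1 was at -3.92 ± 0.10 with a mean count of 1255 in the authors' deposited table for PANC1. There ZEB2, ZEB1 and SNAI1 had positive values, where 26% of all tested genes were called positive and 26.5% negative. A link between these genes was not tested. In KPC, Cdh1 was at 0.27 ± 0.23 with a mean count of 7743 in the authors' deposited table (adjusted p by the Wald test 0.43). The difference between models was 4.19 ± 0.25 (adjusted p by the normal test of the difference 1.67e-58). The epithelial adhesion gene EPCAM had the opposite pattern, at 0.97 ± 0.10 in PANC1 and -1.14 ± 0.28 in KPC in the authors' deposited tables, and the difference of -2.12 ± 0.30 passed (adjusted p by the same test 3.63e-11). With the opposite sign for PANC1 the CDH1 difference still passed, at -3.65 (adjusted p by the same test 3.81e-44), and that of EPCAM did not, at -0.17 (0.71).

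Epithelial genes that EMT factors commonly repress were called in both directions. Of 32 tested in KPC, 6 were called positive and 5 negative, where 5.77% and 4.6% of all genes were, with a median of 0.12 in the authors' deposited table. The positive call with the smallest adjusted p by the Wald test (7.43e-09) was the simple keratin gene Krt7, at 1.18 ± 0.18. Dsg2, a desmosomal cadherin gene, was at 1.27 ± 0.21, the tight junction gene Tjp3 at 2.33 ± 0.43 and the protease inhibitor gene Spint1 at 1.67 ± 0.32 in the authors' deposited table. The 5 negative calls included Cldn4 (-1.99 ± 0.28), St14 (-2.05 ± 0.33) and Ap1m2 (-4.95 ± 1.23). Of all 32 genes, Cldn4 had the smallest adjusted p by the Wald test, 1.58e-10. Cldn4 and St14 stayed called once the running median was taken off, and Ap1m2 did not (adjusted p by the normal test 0.058). After the running median was subtracted the counts in KPC were 4 positive and 3 negative. In PANC1, 6 of 32 were positive and 14 negative, where 26% and 26.5% of all tested genes were. The median was -0.01 in the authors' deposited table. The simple keratin genes KRT8 (-4.35 ± 0.06), KRT19 (-3.79 ± 0.05) and KRT18 (-3.35 ± 0.05) were on the negative side in the authors' deposited table. On the positive side of PANC1 were the clathrin adaptor gene AP1M2 at 2.09 ± 0.23, MAL2 at 1.54 ± 0.26 and DSG2 at 0.57 ± 0.09 in the authors' deposited table.

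Mesenchymal genes did not follow one sign either. In KPC 4 of 28 tested were positive and 5 negative, where 5.77% and 4.6% of all genes were. In PANC1 10 were positive and 11 negative, where 26% and 26.5% of all genes were. The median was -0.59 in KPC and -0.01 in PANC1 in the authors' deposited tables. CDH2, the N-cadherin gene often gained in EMT, was negative in both, at -1.47 ± 0.34 in KPC and -2.03 ± 0.09 in PANC1 in the authors' deposited tables. The intermediate filament gene VIM was at -0.46 ± 0.05 in PANC1 and at -0.09 ± 0.22 in KPC in the authors' deposited tables, and only the first was called. NT5E, which encodes CD73, was positive in both, at 1.11 ± 0.28 in KPC and 2.65 ± 0.06 in PANC1 in the authors' deposited tables. That CDH2 and NT5E each had the same sign in both models depends on the coding. S100A4 was called with opposite signs as listed, at 1.62 ± 0.25 in KPC and -2.13 ± 0.06 in PANC1 in the authors' deposited tables. The gelatinase gene MMP2 was at -2.68 ± 0.07 in the authors' deposited table for PANC1. In KPC the integrin gene Itgb3 (-0.78 ± 0.21) and Sparc (-0.85 ± 0.19) were negative and the collagen gene Col5a1 (1.21 ± 0.34) positive in the authors' deposited table. After the running median was subtracted, 2 were positive and 4 negative in KPC, and Col5a1 was no longer called (adjusted p by the normal test 0.067).

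In KPC, where 10.4% of all tested genes were called, other EMT transcription factors had 1 positive and 0 negative calls of 13 tested. That gene was Tcf4, a basic helix-loop-helix factor also called E2-2, at 0.81 ± 0.20 in the authors' deposited table, and it was not called after the running median was subtracted (adjusted p by the normal test 0.082). In PANC1, 5 of 13 were positive and 4 negative, where 26% and 26.5% of all tested genes were. The homeobox gene PRRX1 was at 2.98 ± 0.65 with a mean count of 11.6, FOXC1 at 1.10 ± 0.17 and SOX9, a duct and progenitor factor, at 0.70 ± 0.07 in the authors' deposited table. TFAP2A was at -1.01 ± 0.14, TCF3 (E2A) at -0.50 ± 0.09 and SOX4 at -0.54 ± 0.06 in the authors' deposited table. SNAI3, the third Snail relative, was at -1.30 ± 0.42 with a mean count of 20.6 in the authors' deposited table for PANC1, opposite in sign to SNAI1. Its antisense gene SNAI3-AS1 was at -1.10 ± 0.26 in the authors' deposited table. Without strand, reads of the pair cannot be told apart where the genes overlap, and their overlap was not checked here. Mouse Snai3 was at 0.39 ± 0.93 with a mean count of 6.01 in the authors' deposited table.

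**Figure D5:**
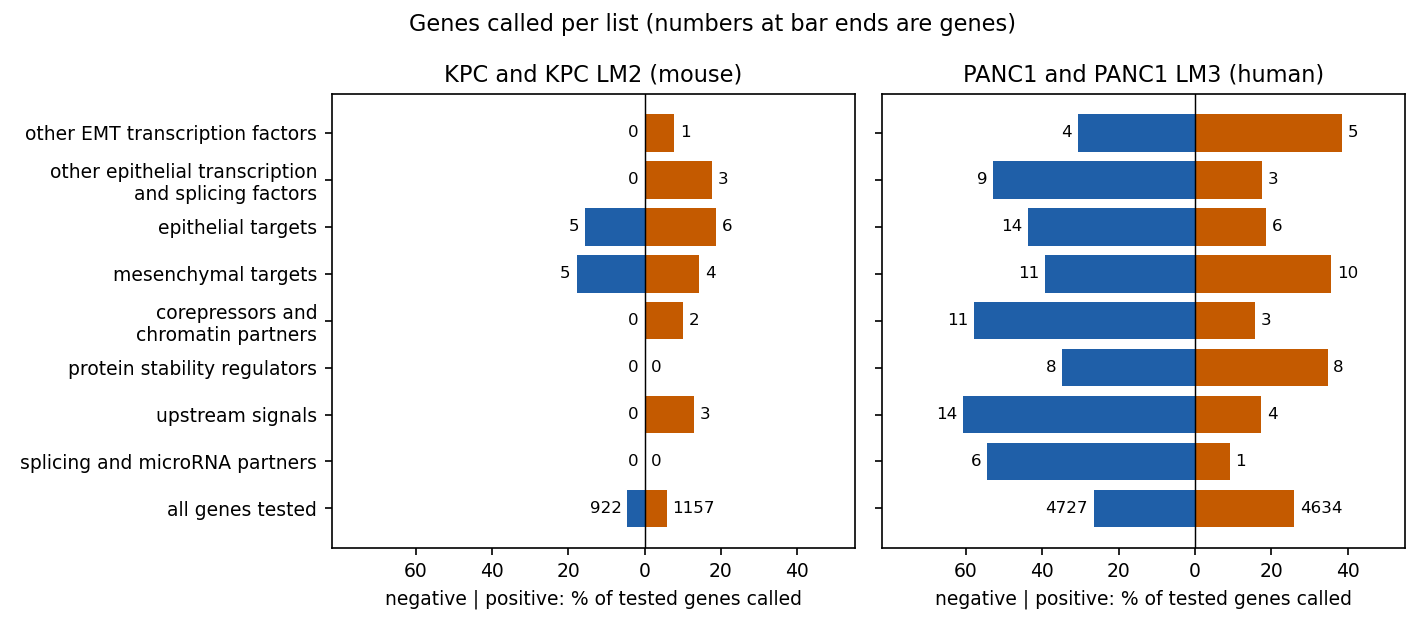
Percent of tested genes called negative (left of 0) and positive (right of 0) on the x axis for 8 gene lists and all tested genes (y axis) in each model; numbers at the bar ends are genes. In PANC1 the epithelial factors, corepressors and upstream signals lean to the negative side, with 9, 11 and 14 negative calls. So do the splicing and microRNA partners, with 6, and the epithelial targets, with 14. In KPC no list has more than 6 calls of 1 sign, where 10.4% of all tested genes were called, against 52.5% in PANC1.

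Among the partners that EMT factors work with, 2 of 20 corepressor and chromatin genes were called in KPC, close to the 10.4% of all tested genes. Both were positive, the methyltransferase gene Dnmt1 (0.54 ± 0.16) and the deacetylase gene Hdac2 (0.61 ± 0.19) in the authors' deposited table, and neither was called after the running median was subtracted (adjusted p by the normal test 0.28 and 0.31). In PANC1 3 of 19 were positive and 11 negative, where 26% and 26.5% of all tested genes were. HDAC1 was at -0.81 ± 0.05, DNMT1 at -0.81 ± 0.06 and the demethylase gene KDM1A, a SNAI1 cofactor, at -0.53 ± 0.06 in the authors' deposited table. Positive were SMARCA4, a chromatin remodeller that binds ZEB1, at 0.76 ± 0.11, and the LIM protein genes LIMD1 (0.76 ± 0.07) and AJUBA (0.43 ± 0.07), which bind SNAI1, in the authors' deposited table.

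In KPC, where 10.4% of all tested genes were called, regulators of SNAI1 and other factors at the protein level had no call. Of the 22 tested by the Wald test, 6 had an unadjusted p under 0.05. With the running median subtracted 1 was called negative, the kinase gene Lats2 (adjusted p by the normal test 0.011), named after its value was seen, and with all values recentred 2 were. In PANC1 8 of 23 were positive and 8 negative, where 26% and 26.5% of all tested genes were. GSK3B, the kinase that marks SNAI1 for degradation, was at -0.58 ± 0.09, the phosphatase gene CTDSP1 at -1.04 ± 0.08 and the kinase gene PAK1 at 1.62 ± 0.07 in the authors' deposited table. RNA levels say nothing of the SNAI1 protein, which these enzymes act on.

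Upstream signals had 3 positive and 0 negative calls of 23 in KPC, beside 10.4% of all tested KPC genes. The calls included the transcription factor antagonist gene Id2 (0.76 ± 0.22) and Smad3 (0.48 ± 0.17) in the authors' deposited table. Tgfb1, a TGF-beta ligand gene, was the other call, at 1.03 ± 0.22 in the authors' deposited table. After the running median was subtracted Tgfb1 was still called (adjusted p by the normal test 0.0098), and Id2 (0.15) and Smad3 (0.58) were not. In PANC1 4 of 23 were positive and 14 negative, where 26% and 26.5% of all tested genes were. The AP-1 gene FOSL1 was at 2.20 ± 0.08 and ETS1 at 0.96 ± 0.06, while ID1, an inhibitor of TWIST partner proteins, was at -1.85 ± 0.10 and the TGF-beta feedback gene SMAD7 at -1.10 ± 0.13 in the authors' deposited table.

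Splicing and microRNA partners had 0 calls of 11 by the Wald test in KPC, where 2 had an unadjusted p under 0.05, and 1 positive and 6 negative of 11 in PANC1. HNRNPM, a splicing factor that competes with ESRP1, was at -1.04 ± 0.07 and SRSF3 at -1.18 ± 0.05 in the authors' deposited table for PANC1, and the muscleblind genes MBNL2 and MBNL1 were at -1.12 ± 0.06 and 0.17 ± 0.06. The members of each list are to be read beside the 52.5% of all tested genes called in PANC1 and the 10.4% called in KPC.

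Because fibroblasts and other host cells also express TWIST, ZEB and SNAI genes, markers of such cells were set beside the results. In bulk RNA, fewer cells of a type and less RNA per cell cannot be told apart. The 5 epithelial markers fixed for the tumour cells, Cdh1, Epcam, Krt8, Krt18 and Krt19, summed to 53829 in KPC and 103394 in PANC1 in the authors' deposited tables. In KPC the defining host markers Col1a1, Ptprc, Pecam1 and Alb had mean counts of 19.9, 28.9, 11.3 and 10.4 in the authors' deposited table. These are low but not 0, and Ptprc is at the level of the lower group of Grhl2. Single markers of the lists were far higher, with Apob of the hepatocyte list at 9009 and Cd14 of the leukocyte list at 471 in the authors' deposited table; these and the human markers below, other than PTPRC and COL1A1, were named after their values were seen. All 13 fibroblast markers tested in KPC had negative values, from -2.21 to -0.54 with a summed level of 192, 1 of them called, opposite in sign to Twist1 and the same as Grhl2 in the authors' deposited table. The median level of these markers was 13.2 mean counts, and 89.7% of all KPC genes with a mean count under 16 were negative. With the running median subtracted, 10 of the 13 were negative and 3 positive. Of 10 leukocyte markers 2 were called negative in KPC, where 4.6% of all tested genes were. Of 12 endothelial and 8 hepatocyte markers 0 were called by the Wald test there, with 2 and 3 at an unadjusted p under 0.05. After the running median was subtracted, 0 markers of these 4 host lists were called in KPC. That step removes any shift shared by genes of a like level, so this count cannot tell if host RNA differed. With all values recentred, 3 fibroblast, 3 leukocyte and 2 endothelial markers were called negative in KPC, and 0 hepatocyte markers. The PANC1 values below are counts of human genes. Whether reads from host cells were counted among them was not tested. In PANC1, PTPRC was at 2.26 and COL1A1 at 173 mean counts, while CD68 of the leukocyte list was at 1103 with a log2 fold change of 1.91 ± 0.07 and COL3A1 at 405 with 1.05 ± 0.11, both called, in the authors' deposited table. The 10 fibroblast markers tested had a median log2 fold change of 0.03 and a summed level of 778, with 1 called positive, in the authors' deposited table. Of 8 human leukocyte markers 2 were positive and 1 negative, and of 5 endothelial and 3 hepatocyte markers 1 each was negative. All of these stand beside the 26% of tested PANC1 genes called positive and the 26.5% called negative. Summed levels per group could not be had, and the part of host cells in the results was not tested.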

How the data were processed

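Total RNA from 12 samples in 4 groups of 3 was prepared with a TruSeq kit, per the labels' protocols. The submitters' processing notes list DESeq2 1.24, featureCounts 2.0.0, STAR 2.7.6a and MultiQC 1.9, with builds mm39 and hg19; settings, strand setting, annotation and model design are not given in the sources used here. Each deposited table gives, per the file headers, a mean normalised count (a signal over the libraries, read as in DESeq2, which the headers do not define), a log2 fold change with its SE on the log2 scale, the Wald statistic (a score) and p-values. The deposited score equalled fold change over SE within 9.17e-08, and the deposited adjusted p-values a Benjamini-Hochberg adjustment within 2.50e-06. The lowest mean normalised count with an adjusted p was 3.08 in KPC and 1.08 in PANC1.

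The planned count test needs counts per library, which these columns do not hold, so the authors' adjusted p under 0.05 was used for all genes. Values were printed for the members and for the other genes named here. Computed here were 95% intervals from the SE, approximate group means from the mean and the fold, a running median of fold changes along expression level (its width is in the plot of fold change against level), and the difference between models. Replicates are biological per the labels; nothing more is said of their source. All 10 genes are named. Of the other lists, up to 4 called genes per list, sign and model with the smallest adjusted p could be named, with 9 fixed contrasts such as CDH1, VIM and ESRP2; the antisense genes were chosen after their values were seen. Members and lists were chosen with earlier results of these data known. Steps were tested on simulated data. Software was scipy 1.17.1, pandas 2.3.3, numpy 2.4.6, matplotlib 3.10.9 and Python 3.11.15. Alternatives were a stricter threshold, a minimum fold, adjustment over all genes with a p, recentring, subtraction of the level trend, a t distribution, a minimum level of 64 and the opposite sign for 1 table. Promoter sequences are from RefSeq.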

Additional observations from a re-analysis of the deposited data

Results flagged for a closer look

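The listed log2 fold change of ZEB2 differed between the models by the test of the difference itself, at -4.08 (KPC minus PANC1), from -0.23 ± 0.32 in KPC and 3.84 ± 0.51 in PANC1 in the authors' deposited tables. The same test separated other genes named above, of which 3 are given here, again as KPC minus PANC1: ELF3 at 4.76, CDH1 at 4.19 and EPCAM at -2.12. With the opposite sign for PANC1, ZEB2, ELF3 and CDH1 still differed, with the sign turned, at 3.61, -2.58 and -3.65, and EPCAM did not (-0.17, adjusted p = 0.71). With 34.9% of all symbols differing between the models, such a difference is common here. The models differ in species, line and number of selection generations, and these cannot be told apart.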

How the results depend on the processing

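No paired analysis was possible because the tables hold 1 comparison per model and no value per library; for the same reason leaving out a replicate, a fit with a replicate block and a comparison of count tools were not run. The 2 KPC calls, Twist1 and Grhl2, held at an adjusted p under 0.01, at an absolute log2 fold change over 1, with adjustment over all genes with a p, after recentring and after subtraction of the level trend. With the t distribution (4 degrees of freedom) 0 KPC members and 0 of all KPC genes passed, while 3 members had an unadjusted p under 0.05 by the normal test. Among genes at a level of 64 or more, 1 KPC member was left to call, Twist1, because Grhl2 is under that level. The 4 PANC1 calls became 2 (ZEB2 and ESRP1) at an absolute log2 fold change over 1, 2 (ZEB1 and SNAI1) at 64 or more, where ZEB2 and ESRP1 are not tested, and 3 (without SNAI1) with the t distribution. Of the members tested for a difference between models, 1 passed, and 0 passed with 4 degrees of freedom (ZEB2 adjusted p = 0.081), 0 at 64 or more, where only ZEB1 was tested, and 3 with the opposite sign for the PANC1 table. With 8 degrees of freedom, an alternative chosen after seeing the data, ZEB2 passed (adjusted p = 0.0046). In KPC some uncalled values changed sign: Snai1 went to 0.0055 and Ovol1 to 0.025 after the level trend was subtracted, and Zeb1 to -0.0070, and to -0.0013 after recentring, which shifted all KPC values by 0.22. Recentring gave 2149 KPC calls, of which 506 were positive, against 1157 of 2079 as deposited. After recentring, KPC lists had fewer positive or more negative calls: 4 and 6 for epithelial targets, 3 and 7 for mesenchymal targets, 0 and 0 for corepressors, 0 and 2 for protein stability regulators, and 0 and 3 for fibroblast and for leukocyte markers. Endothelial markers had 0 and 2, upstream signals 1 and 0, and the other epithelial transcription and splicing factors 2 and 0. Level limits the OVOL genes in both models and Snai1 in KPC.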
